A study of Mus musculus with 42 samples.

Results

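Amino acid transporters are described here through 58 mouse genes, the genes with a probe whose platform symbol begins with Slc1a, Slc3a, Slc6a, Slc7a, Slc36a, Slc38a or Slc43a. They were covered by 120 of the 45281 probes of an Illumina BeadChip, and each gene was read through its probe of highest mean signal over the 42 arrays. A gene was tested where that probe had a detection p-value under 0.01 on at least 2 arrays, which left 37 of the 58 members and 10831 of all 19057 genes. The prefix is wider than its name: Slc6a2 and Slc6a4 carry noradrenaline and serotonin, Slc6a8 carries creatine, Slc43a3 carries purine nucleobases, and Slc7a6os is a gene on the opposite strand of Slc7a6 and no transporter.

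Amino acids cross the plasma membrane on carriers that differ in substrate and in driving force. Slc1 and Slc38 members take up glutamate or small neutral amino acids together with sodium, Slc6 members couple glycine, betaine, taurine or neutral amino acids to sodium and chloride, and Slc7 members either carry cationic amino acids alone or exchange amino acids as the light chain of a dimer with Slc3a2. Hepatocytes are known for taking up glutamine and alanine for urea synthesis and gluconeogenesis, and mouse ES cells for their need of threonine, glutamine and arginine from the medium.

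The arrays came from embryonic stem (ES) cells and from germline cell-derived pluripotent stem cells of lots A and B (GPSC-A and GPSC-B), each untreated (day 0) and after 2, 7, 14, 21 and 28 days as embryoid bodies under a cocktail for hepatic differentiation. Each line had 2 arrays per day. Primary hepatocytes of embryonic day 16 (E16) and postnatal day 1 (PN1) had 3 arrays each, which made 20 groups. No strain, genetic change or treatment other than the cocktail was given in the labels, and nothing said whether replicates were separate cultures or animals, so each p-value measures the spread between these arrays, which may be technical. Levels are log2 normalised signals, differences are log2 units, and "called" means a limma adjusted p under 0.05 over all tested genes with a difference of at least 2-fold.

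Detected probes numbered 8427 to 15123 per array, and the PN1 arrays had the fewest, 8427 to 9287. The arrays labelled PN1 hepatocytes went against that label in part. Of 10 hepatocyte markers, 6 (Alb, Afp, Ttr, Apob, Serpina1a and Fgb) were detected on none of them, with Fgb undetected on E16 arrays too and Serpina1a at a mean of 6.71 against 6.91. The other 4 were detected on every PN1 array, with means of 13.65 for Serpina1b, 12.26 for Apoa1, 11.61 for Apoa2 and 7.60 for Hnf4a, against 15.92, 14.31, 14.62 and 7.87 on E16. The summed signal of the 10 was 20879 to 21979 against 108448 to 115656 on the E16 arrays. The 7 leukocyte and Kupffer cell markers summed to 66838 to 76911 on PN1 and 25559 to 29277 on E16 arrays. The highest was Lyz2, at means of 15.75 on PN1 and 14.00 on E16. Clec4f read 11.77 against 10.45, C1qa 9.94 against 9.35, C1qc 12.26 against 11.93 and C1qb 12.47 against 12.37. Marco (5.29 against 5.80) and Ptprc (4.65 against 4.92) were lower on PN1. All 6 erythroid markers were detected on every hepatocyte array, with sums of 137094 to 144067 (E16) and 147849 to 149702 (PN1), against 195 to 305 in day 28 cultures, where 5 of the 6 (all but Epor) were detected on no array. Day 28 cultures lacked Alb, Afp, Apob and Fgb in all 3 lines, with summed hepatocyte markers of 1908 to 4159, and all 6 fibroblast and stellate cell markers were detected on at least 1 array of each line. What these cells contributed to the transporter levels was not tested, and in bulk RNA fewer cells of a type and less RNA per cell cannot be told apart.

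Detection divided the families. All 3 Slc43 members and 9 of 10 Slc38 members were tested, against 10 of 19 Slc6 and 8 of 15 Slc7 members, and 17 members were detected on no array. Slc38a2 (a sodium-coupled neutral amino acid carrier), Slc38a7 (lysosomal glutamine), Slc43a1 (branched-chain amino acids) and Slc6a6 (taurine) were detected on all 42 arrays. Among the members read by a probe detected on at most 1 array were Slc1a1 and Slc1a2, the neuronal and glial glutamate carriers, Slc7a1, the widespread arginine carrier CAT-1, and Slc7a6 and Slc7a10. For Slc1a2 and Slc7a1 another, dimmer probe passed the filter, so their state here is that of the probe of highest mean. Slc7a5, Slc3a1 and Slc36a4 were not analysed here. Slc3a2, the shared heavy chain, was detected on 8 arrays through its single probe, with group means from 4.75 on ES day 7 to 7.59 on the PN1 arrays.

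**Figure D1:**
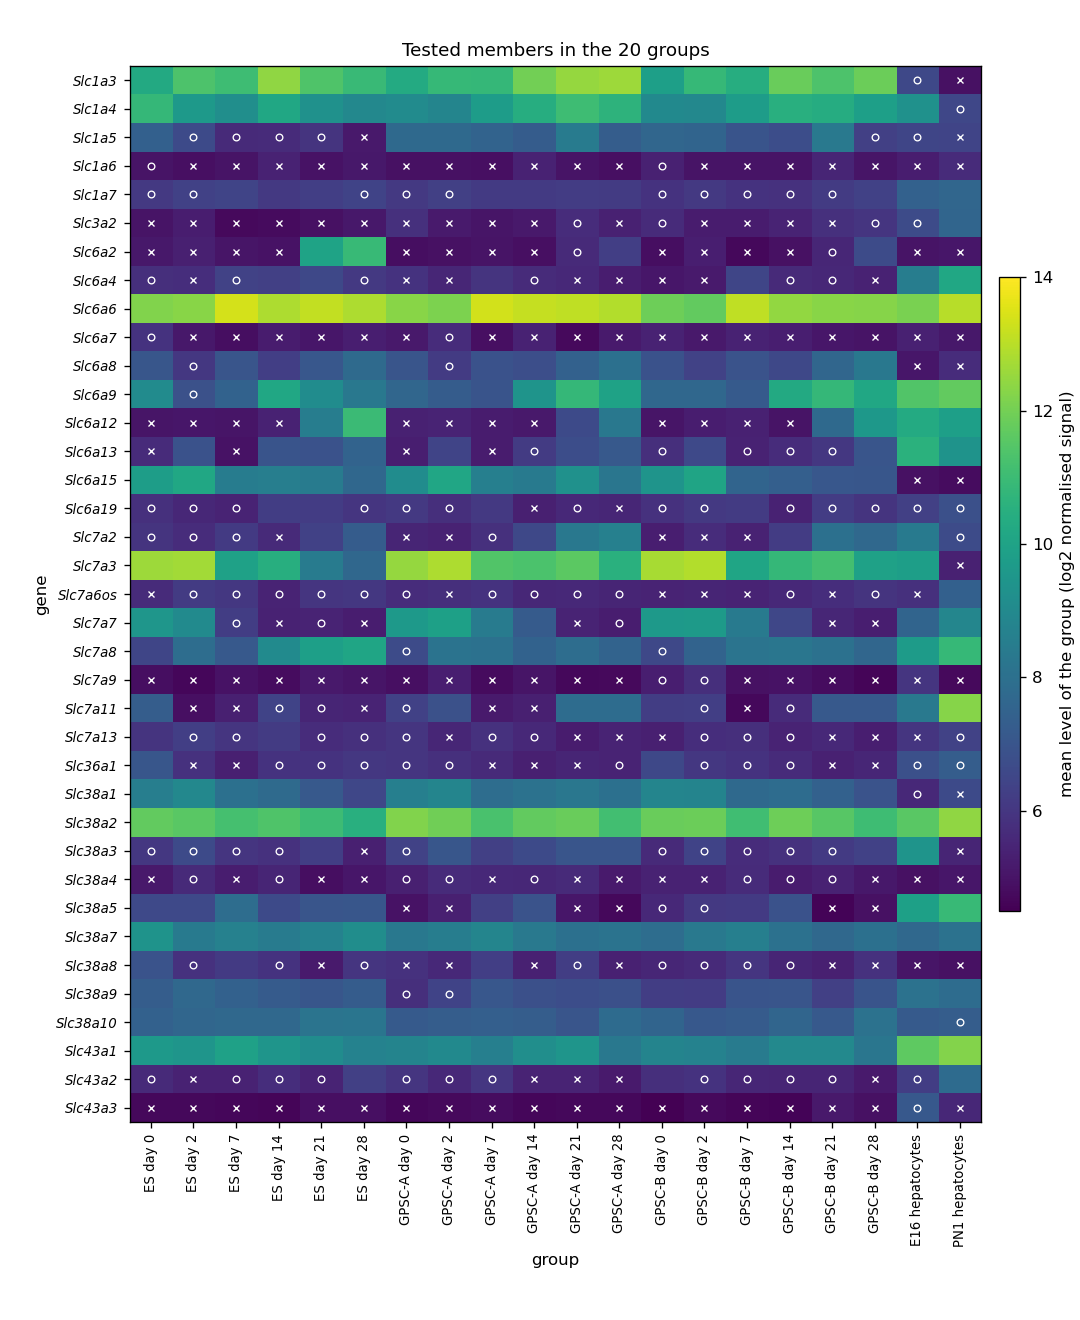
Mean level of the 37 tested members (rows) in the 20 groups (columns), in log2 normalised signal. A cross marks a group with no array detected and a ring a group with only some arrays detected, as for Slc6a12, which was undetected in the cultures until day 14 and detected on all arrays from day 21.

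Over 28 days of culture the cationic amino acid carriers Slc7a3 and Slc7a7 fell in all 3 lines, while another such carrier, Slc7a2, rose in all 3. Slc7a3, the cationic amino acid carrier CAT-3, read 12.69 and 12.56 on the ES day 0 arrays and 7.49 and 7.82 on day 28. In GPSC-A it read 12.39 and 12.58, then 10.26 and 10.83, and in GPSC-B 12.39 and 13.16, then 9.41 and 10.48. No day 28 array reached a day 0 array of its line. The fitted changes were -4.97 ± 0.55 (SE; limma adjusted p = 2.81e-08) in ES, -1.94 ± 0.55 (adjusted p = 0.00655) in GPSC-A and -2.83 ± 0.55 (adjusted p = 0.000157) in GPSC-B. Without GPSC-A day 28 replicate 1 the GPSC-A change was -1.66 with an adjusted p of 0.0725.

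Slc7a7, the y+LAT1 light chain that exports cationic amino acids against neutral ones, fell in each line to levels mostly below detection. On day 0 the ES arrays read 9.74 and 9.26, the GPSC-A arrays 9.27 and 9.93, and the GPSC-B arrays 9.24 and 10.004. On day 28 the pairs were 5.32 and 5.20, 4.69 and 5.82, and 4.81 and 5.81, and only GPSC-A replicate 2 was detected. The day 28 level was at least 11.5-fold lower in ES (limma adjusted p = 2.59e-09) and at least 12.5-fold lower in GPSC-B (adjusted p = 2.58e-09), and the GPSC-A difference was -4.35 ± 0.41 (adjusted p = 3.28e-09). The fall came earlier in ES: on day 7 the ES arrays read 6.36 and 6.07, below GPSC-A (8.18 and 8.72) and GPSC-B (8.29 and 8.48). That difference on day 7 was not tested.

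Some carriers of neutral amino acids fell in part of the lines. Slc6a15, a branched-chain amino acid and proline carrier, went from 10.22 and 9.35 to 7.17 and 8.21 in ES (-2.09 ± 0.45, limma adjusted p = 0.000466) and from 9.12 and 9.71 to 6.23 and 7.85 in GPSC-B (-2.37 ± 0.45, adjusted p = 0.000129). In GPSC-A its change of -0.90 was not called. Slc38a1, the glutamine carrier SNAT1, fell by 2.04 ± 0.34 in ES (adjusted p = 1.69e-05) and by 1.90 ± 0.34 in GPSC-B (adjusted p = 5.44e-05), and differed by -0.60 in GPSC-A. Of its 2 other passing probes, 1 was called lower in ES too (-2.06), the other moved by 0.35, and neither was called in GPSC-B (-0.64 and 0.06). Slc38a2 was lower by 1.21 in ES and by 1.06 in GPSC-A, but its 2 other passing probes moved by 0.59 and 0.07 in ES. Slc1a5, the glutamine exchanger ASCT2, was detected on both ES day 0 arrays (7.21 and 7.62) and on neither day 28 array, at least 2.72-fold lower (adjusted p = 0.000642). In GPSC-B it went from 7.91 and 7.38 to 7.30 and 5.33 (-1.33, adjusted p = 0.0383), with 1 of 2 day 28 arrays detected and the call lost under 6 of 10 other settings, and in GPSC-A its change of -0.43 was not called (adjusted p = 0.567).

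The members that rose in all 3 lines were Slc6a12, Slc6a2 and Slc7a2. Slc6a12, the betaine and GABA carrier BGT1, was detected on no culture array before day 21. On day 28 the ES arrays read 10.42 and 11.55, the GPSC-A arrays 8.42 and 8.19, and the GPSC-B arrays 9.57 and 9.55, which put it at least 34.9-fold higher than on day 0 in ES (limma adjusted p = 4.81e-12), 4.54-fold in GPSC-A (adjusted p = 2.33e-06) and 13.9-fold in GPSC-B (adjusted p = 1.26e-09). ES arrays were highest and GPSC-A arrays lowest on that day, without overlap. Slc6a2, the noradrenaline carrier, read 10.93 and 10.86 on ES day 28 but 6.27 and 6.24 on the GPSC-A arrays and 6.99 and 6.37 on the GPSC-B arrays. It was at least 32.7-fold above day 0 in ES (adjusted p = 5.85e-14), at least 1.10-fold in GPSC-A (adjusted p = 0.00137) and at least 1.88-fold in GPSC-B (adjusted p = 5.61e-05). The calls of the GPSC lines were lost without background correction and when undetected values were raised to the lowest level of any detected probe on the array, the lowest detected level (0.13 in GPSC-A, 0.91 in GPSC-B), and the other 2 passing probes of Slc6a2 were not called in either GPSC line.

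Slc7a2, the cationic amino acid carrier CAT-2 of adult liver, rose by more in the GPSC lines than in ES, a difference not called (1.45). It read 9.07 and 8.22 on GPSC-A day 28 and 7.71 on both GPSC-B day 28 arrays, and was undetected in both on day 0, at least 5.73-fold (limma adjusted p = 8.91e-07) and 3.85-fold (adjusted p = 3.91e-05) higher. In ES it went from 5.67 and 6.19 to 7.22 and 7.31 (1.33 ± 0.42, adjusted p = 0.0119), a call that was lost without ES day 0 replicate 1 (1.07, adjusted p = 0.121) or ES day 28 replicate 2 (1.29, adjusted p = 0.0614). Slc7a8, the LAT2 light chain for neutral amino acids, was called in ES, from 5.53 and 7.41 to 10.14 and 10.06 (3.63 ± 0.50, adjusted p = 1.04e-06). Slc1a3, the glutamate carrier GLAST, rose in GPSC-A from 10.50 and 10.09 to 12.83 and 12.38 (2.31 ± 0.38, adjusted p = 1.97e-05) and in GPSC-B from 9.73 and 9.96 to 11.15 and 12.59 (2.02 ± 0.38, adjusted p = 9.67e-05). In ES it read 10.26 and 10.30 on day 0 and 10.75 and 11.16 on day 28, which was not called.

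Day 28 against day 0 gave 5 higher and 8 lower members for ES, where 17.4% of all tested genes were higher and 16.7% lower. For GPSC-A there were 8 higher and 3 lower, beside 15.4% and 13.6% of all genes, and for GPSC-B 6 of each, beside 16.9% and 15.3%. The called members were 35.1%, 29.7% and 32.4% of the 37 tested, and the called genes 34.1%, 29% and 32.2% of all tested, so the share of transporters called was near the background for each line. The number called without 1 array ranged from 9 to 15 in ES (9 without ES day 0 replicate 1), from 7 to 11 in GPSC-A (7 without GPSC-A day 0 replicate 2) and from 11 to 12 in GPSC-B. The 3 members higher in all 3 lines were 8.11% of those tested, beside 9.8% of all genes, and the 2 lower in all 3, Slc7a3 and Slc7a7, were 5.41%, beside 9.51%. The median change of the members was 0.12, -0.13 and 0.33, beside 0.003, 0.02 and 0.06 over all genes.

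**Figure D2:**
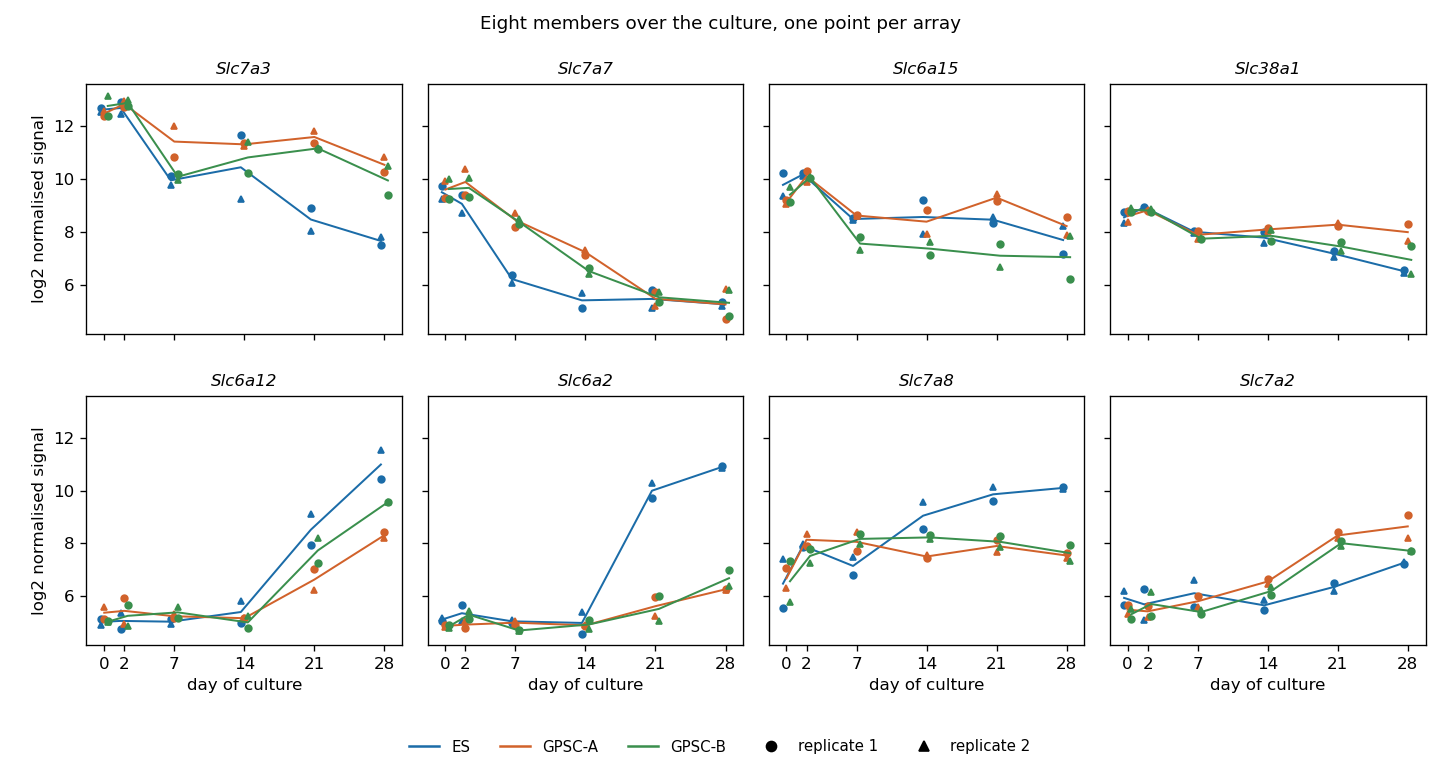
Level of 8 members (log2 normalised signal) against day of culture, with a point per array, colours for the 3 lines and lines through the group means. Slc7a3 and Slc7a7 fall in all lines, Slc6a12 rises from day 21 in all lines, and Slc6a2 and Slc7a8 end highest in ES, at 10.93 and 10.14 on the first day 28 array.

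Taken as the mean of the 3 lines, the steps of the culture moved different carriers. From day 0 to day 2 only Slc7a8 (1.29 ± 0.29, limma adjusted p = 0.00213) and Slc6a13, the liver GABA and taurine carrier GAT2 (1.05 ± 0.30, adjusted p = 0.0155), were called, 5.41% of members beside 5.44% of all genes (1.49% higher, 3.95% lower). Without ES day 0 replicate 1 neither was called, Slc7a8 at 0.97 and Slc6a13 at 0.95. From day 2 to day 7 Slc7a3 (-2.32 ± 0.32, adjusted p = 1.05e-06), Slc6a15 (-1.90 ± 0.26, adjusted p = 1.24e-06), Slc7a7 (-1.86 ± 0.24, adjusted p = 3.57e-07) and Slc6a13 (-1.44 ± 0.30, adjusted p = 0.000312) fell. Both Slc6a13 calls were lost with undetected arrays at the lowest detected level (0.65 and -0.76). Slc6a6 rose in that step by 1.22 ± 0.18 (adjusted p = 2.44e-06), from 11.19 to 12.55 over the 6 day 2 arrays (median 12.18) to 13.05 to 13.59 on day 7 (median 13.27), without overlap.

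From day 7 to day 14 the glycine carrier Slc6a9 (GlyT1) rose by 2.73 ± 0.23 (limma adjusted p = 5.19e-10). The 6 arrays ran from 6.74 to 7.66 on day 7 (median 7.20) and from 9.29 to 11.12 on day 14 (median 9.43). Slc1a3 rose by 1.32 ± 0.22 in the same step (adjusted p = 4.34e-05), and Slc7a7 fell by a further 1.30 (adjusted p = 0.000148). The day 7 step called 5 of 37 members, with 14.6% of all genes called (8.58% higher, 6.06% lower). The day 14 step called 10.8% of members beside 8.38% of all genes (5.74% higher, 2.64% lower). From day 14 to day 28, 8 members (21.6%) were called, beside 14.9% of all genes (7.78% higher, 7.11% lower). They included Slc6a12 at least 14.8-fold higher (adjusted p = 1.67e-14), Slc6a2 at least 4.62-fold higher (adjusted p = 3.75e-13), Slc7a2 at 1.74 ± 0.24 (adjusted p = 1.37e-06) and the creatine carrier Slc6a8 at 1.52 ± 0.26 (adjusted p = 3.23e-05). Slc7a3 fell by a further 1.48 ± 0.32 (adjusted p = 0.000479) in that step.

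The change over 28 days differed between the GPSC lines and ES cells for 7 members, 18.9% of those tested beside 4.1% of all genes (1.68% higher, 2.42% lower). Slc6a9 ended higher in the GPSC lines: the GPSC-A arrays read 7.46 and 7.81 and the GPSC-B arrays 7.72 and 7.62 on day 0, then 10.06, 9.91, 9.92 and 10.41 on day 28, while ES went from 8.87 and 9.29 to 8.24 and 8.37. The difference in change, GPSC mean minus ES, was 3.20 ± 0.50 (limma adjusted p = 0.000186). Slc1a4, the serine and alanine carrier ASCT1, read 11.52 and 10.12 on ES day 0 and 8.95 and 8.90 on ES day 28. In GPSC-A it went from 9.40 and 8.77 to 10.94 and 10.37, and in GPSC-B from 9.39 and 8.65 to 9.66 and 10.05 (difference 3.10 ± 0.68, adjusted p = 0.00622).

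Slc7a11, the cystine and glutamate exchanger xCT, went from 7.81 and 6.82 to undetected levels of 4.94 and 5.95 in ES. In GPSC-A it went from 6.56 and 6.08 to 8.33 and 7.37. In GPSC-B its mean went from 6.21 to 7.14, a rise of 0.93 that was below 2-fold. The difference, GPSC mean minus ES, was 3.10 ± 0.82 (limma adjusted p = 0.0259). Slc7a3 fell less in the GPSC lines (2.59 ± 0.67, adjusted p = 0.0231). Slc6a2 (-4.18 ± 0.40, adjusted p = 2.36e-07), Slc7a8 (-2.66 ± 0.61, adjusted p = 0.00843) and Slc6a12 (-2.23 ± 0.51, adjusted p = 0.00837) rose less in the GPSC lines. Slc7a11 was undetected on the ES day 28 arrays, and Slc6a2 and Slc6a12 on the day 0 arrays of all lines, so the sizes of these 3 differences rest in part on levels below detection. With undetected arrays raised to the lowest detected level of the array they were 2.48 (adjusted p = 0.0107), -4.51 (adjusted p = 2.17e-08) and -2.14 (adjusted p = 0.0092). Without ES day 0 replicate 1 only 3 of the 7 were called, with Slc1a4 at 2.40 (adjusted p = 0.0969), Slc7a11 at 2.61 (0.177), Slc7a3 at 2.52 (0.0959) and Slc7a8 at -1.72 (0.164). When arrays were scaled to a common median, 3 were called, 8.11% of members beside 1.44% of all genes. The median of all genes then stood at 0.21. At day 0 itself Slc1a4 (-1.77), Slc6a9 (-1.42), Slc38a5 (-1.32) and Slc38a9 (-1.29) were called lower in GPSC than in ES, 10.8% of members beside 3.32% of all genes (1.64% higher, 1.68% lower). Only 1 of these 4 was called without ES day 0 replicate 1, none with median scaling, and Slc38a5 was not with undetected arrays at the lowest detected level (-0.56).

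Genes of the amino acid response differed between the lines in the direction of Slc1a4, Slc6a9 and Slc7a11. In that pathway, low amino acids activate the kinase Gcn2 and the factor Atf4, which raises transcripts for amino acid uptake and synthesis. Slc7a11 and Slc1a4 are among the known Atf4 targets. The members Slc38a2 (0.29) and Slc3a2 (-0.20, detected on 8 arrays) were not called in the difference in 28-day change between the lines. The Atf4 transcript itself was not called in the difference in 28-day change, GPSC mean minus ES (0.90, limma adjusted p = 0.598). Over all days it read 4.70 to 5.44 on the ES arrays and 5.90 to 8.56 on the GPSC arrays. Every ES value lay below the lowest detected level of its array (5.43 to 6.75), so the value of 0.90 rests in part on levels below detection. On the E16 and PN1 arrays Atf4 read 4.48 to 4.92, below that level too. Of 30 tested genes of an amino acid response list, ES day 28 had 6 called higher and 10 lower (20% and 33.3%, beside 17.4% and 16.7% of all genes). GPSC-A had 9 called higher and 0 lower (30% and 0%, beside 15.4% and 13.6%), and GPSC-B 11 higher and 1 lower (36.7% and 3.33%, beside 16.9% and 15.3%). Their median change was -0.92, 0.56 and 0.47, beside 0.003, 0.02 and 0.06 over all genes. In the difference between the lines 5 were called higher and 0 lower (16.7% and 0%, beside 1.68% and 2.42%), with a median of 1.09 beside 0.02: Asns (asparagine synthetase) at 3.02, Chac1 (glutathione breakdown) at 4.73, Trib3 (an Atf4 inhibitor) at 3.20, Mthfd2 (mitochondrial folate enzyme) at 2.32 and Vldlr (a lipoprotein receptor) at 2.21. Without ES day 0 replicate 1 only Chac1 (4.08, limma adjusted p = 0.0314) and Mthfd2 (2.19, adjusted p = 0.0289) were called, with Asns at 2.87 (0.0914), Trib3 at 2.56 (0.107) and Vldlr at 1.11 (0.369), and the median of the list was 0.95.

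Genes of both sets also stood apart within some replicate pairs of a single group, where culture day and line are shared. On ES day 14, replicate 1 exceeded replicate 2 by 3.16 for Slc7a11, 2.43 for Slc7a3, 1.94 for Slc1a4 and 1.71 for Slc6a9, and by 2.60 for Chac1, 2.69 for Trib3 and 2.01 for Asns. On GPSC-B day 14 replicate 2 was the higher, by 1.74 for Slc7a11, 1.70 for Slc6a9, 1.18 for Slc7a3 and 0.60 for Slc1a4, with Chac1 at 2.82, Trib3 at 2.61 and Asns at 2.01. The median over the 30 listed genes was 1.04 higher in replicate 1 on ES day 14 and 1.32 higher in replicate 2 on GPSC-B day 14, and lay between -0.37 and 0.39 for replicate 1 minus 2 in the other 16 culture groups. All-gene medians lay between -0.01 and 0.07. On ES day 0, replicate 1 was the higher by 1.41 for Slc1a4, 0.98 for Slc7a11, 1.30 for Chac1 and 1.28 for Trib3. Replicate 1 minus 2 was -0.42 for Slc6a9 and 0.13 for Slc7a3 in that group. The list did not move as 1 block: Asns and Psat1 (serine synthesis) were lower in replicate 1 than in replicate 2 in all 12 GPSC groups, with differences for Psat1 from -0.94 to -2.40.

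**Figure D3:**
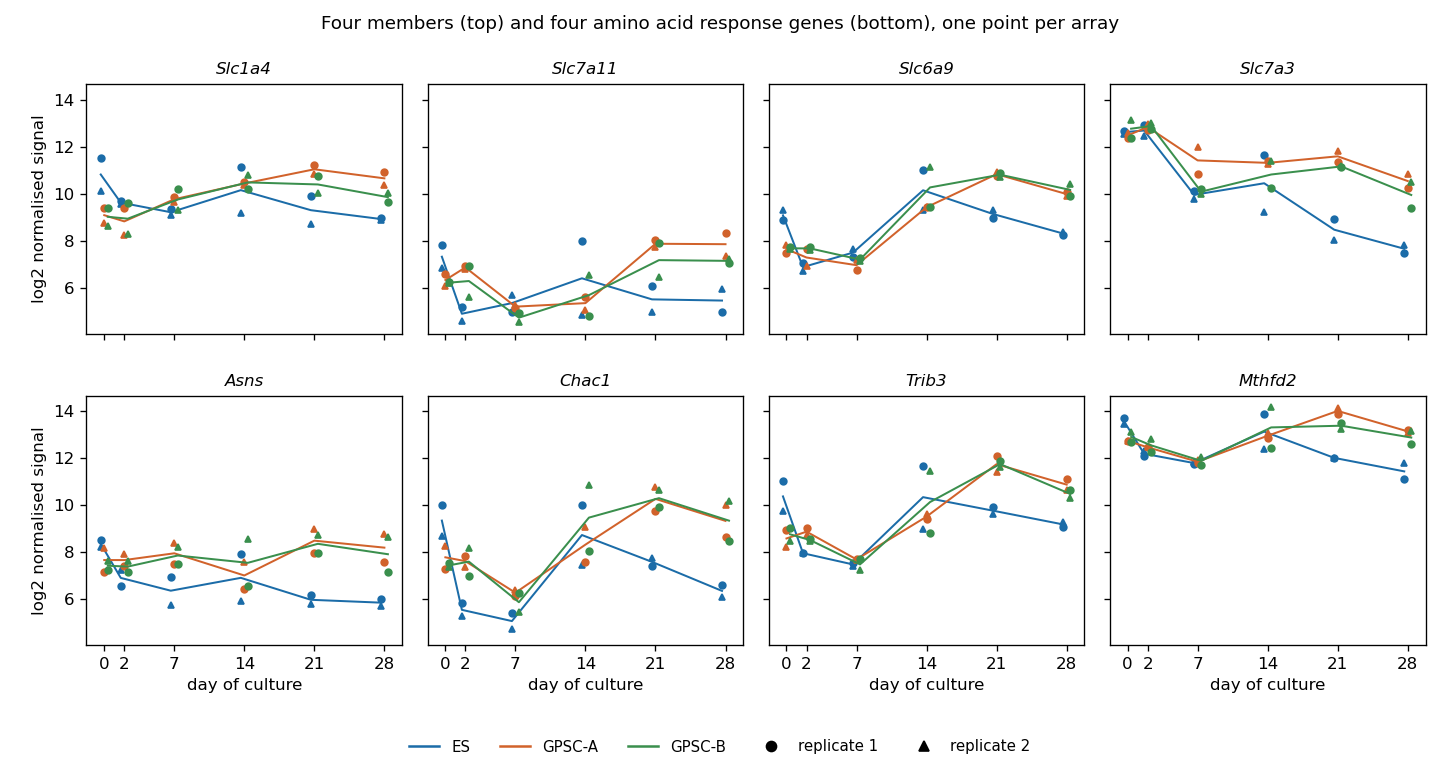
Level (log2 normalised signal) against day of culture for 4 members in the upper row and 4 amino acid response genes in the lower row, with a point per array and lines through group means. The circle of ES day 14 and the triangle of GPSC-B day 14 lie above their partner in all 8 panels, for Slc7a11 by 3.16 and 1.74.

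Because Atf4 binds the amino acid response element, promoters were searched for its core, TGATGNAA, on both strands, over 250 bases before to 50 after each start (RefSeq, GRCm38.p6). It was found in 4.51% of 27025 genes, in 12 of the 30 listed response genes with a promoter in the table (10 of 26 among those tested on the arrays), and in 3 of 25 tested members with a promoter in the table: Slc7a11, Slc1a4 and Slc7a7. Slc6a9 and Slc7a3 were not among them. Both went in the direction of the list between the lines and within the ES and GPSC-B day 14 pairs. Over 28 days Slc7a3 fell in the GPSC lines, where the median of the list rose. Slc7a7 had a match, and its 28-day change was not called different between the lines. Its day 28 levels were mostly below detection in all lines, so a difference in the size of its fall could not be read. Slc7a7 had 5 start windows in the table, 3 of them without a match, and the one with 2 matches is shown. The core of the antioxidant response element, TGACNNNGC, was found in 5 of these 25 members and in 14.0% of all genes, and in neither Slc7a11 nor Slc1a4. A match is a description of the letters and not a binding site, and its relation to any change in level was not tested. Sites outside these windows were not searched. The sequences below show where the matches lie in the 3 members and in Chac1, with TGATGNAA or its reverse complement in capitals: at -66 and -47 in Slc7a11 (chr3:50443564-50443863, minus strand), at -4 in Slc1a4 (chr11:20332664-20332963, minus strand), and at -141 and -1 in Slc7a7 (chr14:54417895-54418194, minus strand), counted to the first base of the match. Chac1 lies at chr2:119350992-119351291 on the plus strand.
Slc7a11: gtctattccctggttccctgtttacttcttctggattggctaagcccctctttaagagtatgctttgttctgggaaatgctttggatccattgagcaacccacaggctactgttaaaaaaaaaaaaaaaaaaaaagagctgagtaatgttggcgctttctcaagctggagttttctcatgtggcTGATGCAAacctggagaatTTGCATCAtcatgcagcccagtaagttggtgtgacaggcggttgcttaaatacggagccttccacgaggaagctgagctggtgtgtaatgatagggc
Slc1a4: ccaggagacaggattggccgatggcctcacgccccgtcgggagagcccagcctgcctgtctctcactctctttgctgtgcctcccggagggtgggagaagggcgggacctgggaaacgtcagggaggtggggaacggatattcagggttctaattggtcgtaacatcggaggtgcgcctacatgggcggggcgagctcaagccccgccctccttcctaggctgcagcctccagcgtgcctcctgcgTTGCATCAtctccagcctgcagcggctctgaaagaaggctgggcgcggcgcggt
Slc7a7: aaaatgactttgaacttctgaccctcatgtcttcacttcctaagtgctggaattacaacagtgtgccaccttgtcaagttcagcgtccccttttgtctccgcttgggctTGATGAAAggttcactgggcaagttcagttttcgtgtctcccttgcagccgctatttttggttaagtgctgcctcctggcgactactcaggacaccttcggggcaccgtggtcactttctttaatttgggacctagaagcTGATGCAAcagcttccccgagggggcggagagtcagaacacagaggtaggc
Chac1: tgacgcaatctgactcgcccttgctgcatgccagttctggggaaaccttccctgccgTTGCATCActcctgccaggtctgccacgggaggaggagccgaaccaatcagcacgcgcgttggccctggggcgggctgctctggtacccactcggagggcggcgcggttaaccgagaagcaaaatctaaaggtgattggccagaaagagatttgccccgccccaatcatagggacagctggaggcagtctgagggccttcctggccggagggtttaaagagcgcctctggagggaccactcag

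The share of members called on the E16 hepatocyte arrays was above that of all genes, but against day 28 not when arrays were scaled to a common median. Against the untreated lines 14 members were called higher and 8 lower (59.5%), beside 39.4% of all genes (17.7% higher, 21.6% lower). Against day 28 cultures 15 were called higher and 5 lower (54.1%), beside 35.1% of all genes (15.4% higher, 19.7% lower). The 15 included Slc7a9 (1.17), detected on no E16 or day 28 array, and Slc43a3 (2.25), detected on E16 arrays only. With undetected arrays at the lowest detected level, 13 were higher and 5 lower against day 0, and 13 and 4 against day 28. The share of all genes in that setting is not given here. With median scaling the splits were 10 and 11 against day 0 (56.8% of members beside 48.1% of all genes), and 8 and 7 against day 28 (40.5% beside 41.1%), and the median of all genes then lay at -0.67 and -0.57.

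Against the untreated cells, the 5 largest fitted differences among called members on E16 arrays were those of Slc6a12, Slc6a13, Slc6a15, Slc38a5 and Slc1a3, and each was called under every setting tried. Fitted values of undetected groups set part of this order: with undetected arrays at the lowest detected level Slc6a15 differed by -2.88, less than Slc6a9 (3.29) and Slc38a3 (3.19). Slc6a12 was detected on no untreated array (4.90 to 5.60) and stood at least 21.1-fold higher on E16 (limma adjusted p = 5.05e-15). Slc6a13 differed by 4.97 ± 0.36 (adjusted p = 1.52e-12), from 4.79 to 6.13 on the 6 untreated arrays (median 5.63), of which 1 was detected (4.57 with the others at the lowest detected level). Slc38a5 differed by 4.16 ± 0.23 (adjusted p = 2e-15), from 4.86 to 6.78 (median 5.59; 3.66 with undetected arrays at that level). Slc6a15 was undetected on E16 and at least 7.37-fold lower (adjusted p = 8.35e-13), and Slc1a3 differed by -3.58 ± 0.27 (adjusted p = 2.3e-12). For all 5 the E16 and untreated arrays did not overlap. Slc38a9, a lysosomal arginine sensor of mTORC1, was higher by 1.66 ± 0.22 (adjusted p = 1.74e-07), a call lost with median scaling.

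The members named next, against day 28, were called under every setting tried except where stated. Among carriers high on E16 arrays, Slc38a5, the system N carrier SNAT5, read 9.82, 9.57 and 10.26, against 4.54 to 7.05 on the 6 day 28 arrays (median 5.10), of which 2 were detected, a difference of 4.32 ± 0.23 (limma adjusted p = 1.18e-15). Slc43a1 (LAT3) read 11.42, 11.25 and 12.27 against 8.02 to 8.93 (median 8.46; 3.24 ± 0.22, adjusted p = 2.25e-13). Slc38a3, the system N glutamine carrier SNAT3 of hepatocytes, read 9.56, 9.13 and 9.52 against 5.20 to 7.92 (median 6.14, 4 of 6 detected; 3.18 ± 0.41, adjusted p = 1.71e-07). None of these groups overlapped. Slc6a13 read 10.76, 10.68 and 10.24 against 6.47 to 7.75 (median 7.47; 3.33 ± 0.36, adjusted p = 7.11e-09). Slc6a4, the serotonin carrier of platelets and neurons, read 8.54, 8.41 and 8.68 against 5.16 to 6.13 (median 5.51, 1 of 6 detected; 2.96 ± 0.25, adjusted p = 2.99e-11). With undetected day 28 arrays at their lowest detected level the differences were 3.59 for Slc38a5, 2.97 for Slc38a3 and 2.56 for Slc6a4. Slc6a9, which also supplies glycine to red cell precursors, read 11.41, 11.56 and 11.30 against 8.24 to 10.41 (median 9.92; 1.94 ± 0.29, adjusted p = 1.5e-06).

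Erythroid and platelet markers rose beside these carriers. All 6 erythroid markers were called higher on E16 arrays than on day 28 (median difference 6.57), as were all 3 tested platelet markers (median 3.84; sums 2169 to 3951 against 178 to 286, with Pf4 undetected) and all 9 tested hepatocyte markers (median 4.64). Their part in the transporter levels was not tested.

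Other carriers were lower on E16 arrays or not called different from the mean of the 3 lines on day 28. Slc1a3 read 6.78, 6.50 and 6.38 against 10.75 to 12.83 on day 28 (median 11.77; -5.25 ± 0.27, limma adjusted p = 5.8e-16), with 2 of 3 E16 arrays detected. Slc6a15 was undetected on E16 arrays and at least 2.13-fold lower (adjusted p = 3.17e-08), Slc6a8 at least 2.81-fold lower (adjusted p = 4.71e-09) and Slc6a2 at least 2.62-fold lower (adjusted p = 1.02e-11). Slc6a12 read 10.11, 10.16 and 10.67 against 8.19 to 11.55 (median 9.56), and its difference of 0.70 ± 0.29 was below 2-fold. Slc7a2 (0.56 ± 0.30, adjusted p = 0.119) and Slc7a3 (0.43 ± 0.39, adjusted p = 0.372) were not called, with E16 values of 8.03 to 9.21 and 9.62 to 9.998 inside the day 28 ranges or overlapping them (7.22 to 9.07 and 7.49 to 10.83). The lines differed in this: the ES day 28 arrays of Slc7a3 (7.49 and 7.82) and Slc7a2 (7.22 and 7.31) and the GPSC-A arrays of Slc6a12 (8.42 and 8.19) lay below all E16 arrays, and E16 was not tested against a single line. Slc7a7, undetected on 5 of 6 day 28 arrays, read 7.40, 7.61 and 7.71 on E16, 2.30 ± 0.29 higher (adjusted p = 1.1e-07), or 1.63 with undetected arrays at the lowest detected level.

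The arrays labelled PN1 differed from E16 in 8 members called higher and 8 lower, 43.2% beside 23.9% of all genes (10.3% higher, 13.6% lower). With median scaling 2 were higher and 6 lower (21.6% of members beside 15.3% of all genes). With undetected arrays at the lowest detected level 6 were higher and 5 lower, and Slc1a3, Slc43a3 and Slc7a9, undetected on PN1, were no longer called lower. Slc7a9 was undetected on all E16 arrays too. Among the 8 called higher was Slc38a1 (1.02), detected on no PN1 array and on 1 of 3 E16 arrays. It stood at 0.51 with undetected arrays at that level. Slc7a11 rose from 8.07, 8.22 and 8.77 to 11.95, 12.50 and 12.40 (3.93 ± 0.55, limma adjusted p = 1.51e-06). Slc6a4 rose from 8.41 to 8.68 on the E16 arrays to 10.13, 9.90 and 10.42 (1.61 ± 0.28, adjusted p = 4.99e-05). No PN1 array overlapped an E16 array for either gene. Of the 5 tested leukocyte and Kupffer cell markers 1 was called higher (median 0.59), and of the 3 tested platelet markers 0 were (median 0.56). Their part in these rises was not tested.

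The falls on PN1 that were called under every setting tried were those of Slc7a3, Slc38a3, Slc1a4 and Slc7a2, carriers of cationic amino acids, glutamine and serine. Slc7a3 went from 9.62, 9.83 and 9.998 to undetected levels of 5.30, 6.24 and 4.57, at least 6.31-fold lower (limma adjusted p = 4.67e-09). Slc38a3 went from 9.56, 9.13 and 9.52 to undetected levels of 4.69, 5.51 and 6.23, at least 4.75-fold lower (adjusted p = 1.45e-07). Slc1a4 went from 8.84, 9.38 and 9.65 to 7.00, 6.71 and 5.83, with 1 of 3 PN1 arrays detected (-2.78 ± 0.46, adjusted p = 1.71e-05). Slc7a2 went from 8.03, 8.05 and 9.21 to 6.28, 7.27 and 6.47, with 1 of 3 detected (-1.76 ± 0.34, adjusted p = 0.000164). Hepatocyte markers moved with them, 7 of 9 called lower with a median of -2.61, and their part was not tested. Slc38a2 (12.36, 12.59 and 12.31 on PN1; 0.86 ± 0.25) and Slc6a6 (12.94, 13.28 and 12.71; 0.90 ± 0.25) were higher by less than 2-fold, and a second probe of Slc6a6 went the other way (-2.04).

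**Figure D4:**
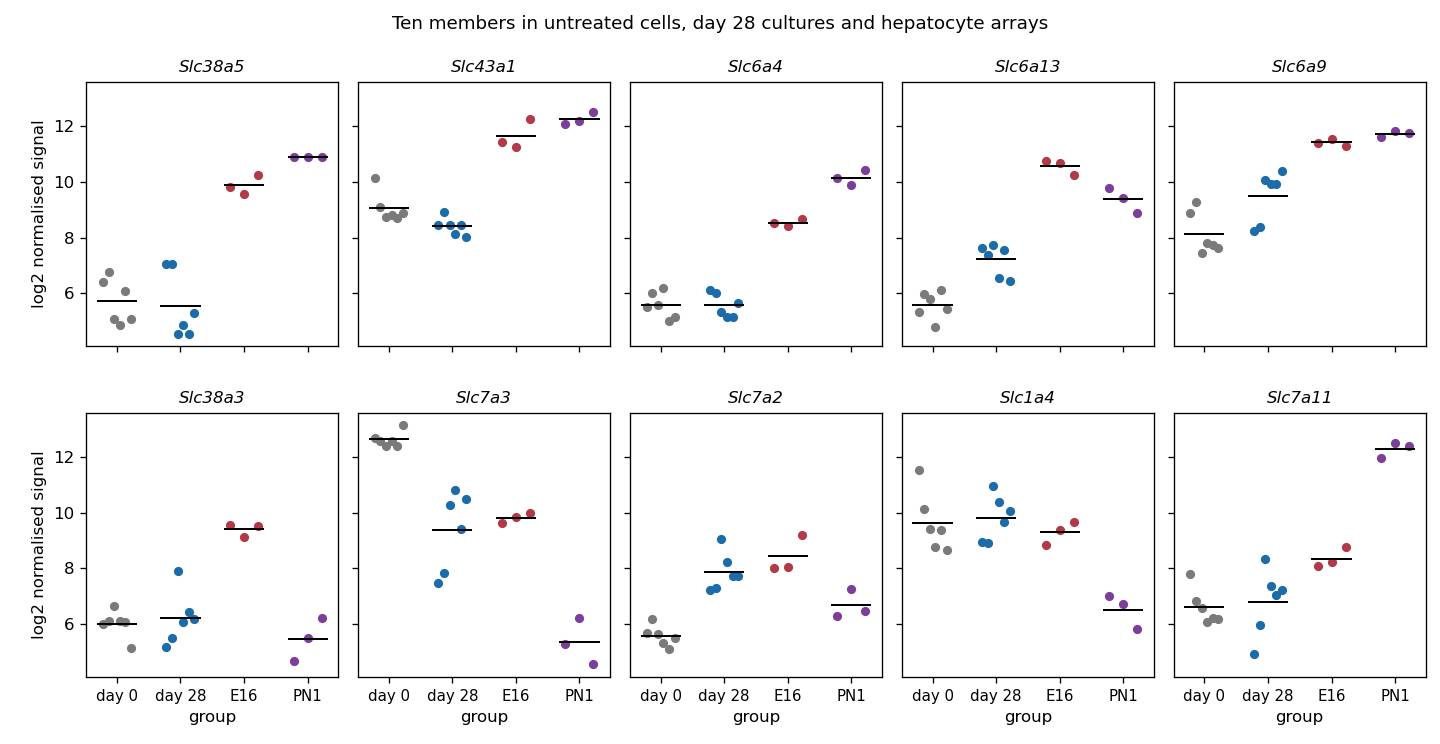
Level of 10 members (log2 normalised signal) on the 6 untreated arrays, the 6 day 28 arrays and the 3 arrays each of E16 and PN1, with a point per array and a bar at the mean. The upper row reads above day 28 on all E16 arrays, and Slc7a11 reads 11.95 to 12.50 on PN1 against 8.07 to 8.77 on E16.

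Enzymes that use these amino acids changed with the hepatocyte groups. Of 33 tested hepatic amino acid enzymes, 16 were called higher and 4 lower on E16 than on day 28 (median 0.91, beside -0.09 over all genes), or 48.5% and 12.1%, beside 15.4% and 19.7% of all genes. Gnmt (glycine methylation) was at least 66.6-fold and Hpd (tyrosine breakdown) at least 9.43-fold higher, both undetected on day 28. Cps1, the entry enzyme of the urea cycle, differed by 6.73 with 2 of 6 day 28 arrays detected, and Mat1a (methionine activation) by 5.44 with 1 of 6. On PN1 against E16 1 was called higher and 18 lower (3.03% and 54.5%, beside 10.3% and 13.6%; median -1.23 beside 0.003), with Cps1 undetected on PN1 and at least 33.5-fold lower. The amino acid response list had 10 higher and 7 lower on E16 against day 28 (33.3% and 23.3%). On PN1 against E16 it had 0 higher and 14 lower (0% and 46.7%, median -1.04). Slc7a11 rose on PN1, and its relation to the list there was not tested. Of 26 tested genes of amino acid sensing and mTORC1, day 28 of ES culture had 1 higher and 6 lower, that of GPSC-A 2 and 3, and that of GPSC-B 2 of each. These were 26.9%, 19.2% and 15.4% of the list, each below the 34.1%, 29% and 32.2% of all genes called in the same lines. Among them were Rragb (a Rag GTPase) at -3.64 (ES), -2.37 (GPSC-A) and -2.44 (GPSC-B), and Sesn1 (a sestrin) at 2.72, 1.86 and 1.23 in the same order. Of 13 tested mitochondrial, vesicular and peptide carriers outside the 7 families, ES had 3 higher and 2 lower, GPSC-A 2 of each, and GPSC-B 3 higher and 1 lower, or 38.5%, 30.8% and 30.8%, near those shares of all genes. Among these, Slc17a6, a vesicular glutamate carrier, rose by 2.21, 2.93 and 2.02 for the lines in that order, and Slc25a15, the mitochondrial ornithine carrier, fell by 2.03, 2.02 and 2.67.

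The remaining carriers are given by their group means. Those of Slc6a6 ran from 11.73 on GPSC-B day 2 to 13.40 on ES day 7, and those of Slc38a2 from 10.51 on ES day 28 to 12.42 on PN1. Slc6a8 was lowest on E16 at 5.06 and highest on GPSC-B day 28 at 8.32. Slc1a5 ran from 5.17 on ES day 28 to 8.47 on GPSC-A day 21. Slc7a9, the cystine and cationic amino acid light chain of kidney and gut, was detected on 2 of 42 arrays, neither of them of E16 or PN1.

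Of the 37 tested members, 7 (Slc1a6, Slc38a4, Slc38a7, Slc38a10, Slc6a7, Slc6a19 and Slc7a13) were called in none of the 12 comparisons. Slc38a4, the system A carrier SNAT4 known from adult liver, was detected on 8 arrays, on none of them in E16 or PN1. Slc3a2 was called higher on E16 than on day 28 (1.18 ± 0.30, limma adjusted p = 0.00139) on 2 of 3 arrays detected, and the call was lost without E16 replicate 2 (0.85, adjusted p = 0.0328) and with undetected arrays at the lowest detected level (0.82). Slc43a2 (LAT4) read 6.43, 5.87 and 6.41 on E16, with 1 array detected, and 7.80, 8.16 and 7.52 on PN1 (1.59 ± 0.29, adjusted p = 5.62e-05), lost with median scaling (0.70). Slc43a3 was detected on 2 of the 42 arrays, both E16. Slc36a1, a lysosomal proton-coupled carrier, was detected on 17 arrays and called lower on GPSC-B day 28 (adjusted p = 0.0424), lost without GPSC-B day 0 replicate 2 (-0.74, adjusted p = 0.289).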

How the data were processed

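Total RNA of 42 samples was labelled as biotin cRNA and hybridised to Illumina BeadChips, per the labels' protocols. The deposited table holds non-normalized probe intensity values, and a detection p-value for each from the scanner software; per the submitters' processing notes this was GenomeStudio, with no version given. A second deposited table held signals processed by the authors in a way not given in the sources used here. Its values were log2 transformed and served only as an alternative.

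From the intensities, limma 3.58.1 (R 4.3.3) corrected background and normalised with neqc (normexp, quantile, offset 16). lmFit and eBayes were fitted to all 42 arrays with 1 term per group, and p-values were adjusted by Benjamini-Hochberg over 10831 genes. Results were tabulated and drawn with Python 3.11.15, pandas 2.3.3 and matplotlib 3.10.9. A called change had an adjusted p under 0.05 and at least 2-fold. Where a gene was undetected on every array of 1 group, its fold is a bound: on each of those arrays the higher of the gene's own level and the lowest level of any detected probe was used. Simulated arrays for ES day 28 recovered 53% of changes of 1.5 log2 units and 97% of changes of 3, with 11 false calls over 10831 genes. Any member may be named; array or group values were given for the 5 called members of largest change in each comparison and for a set of well-known carriers whatever their result, and other members by range. The members and gene lists were chosen with earlier results of these data known. As an alternative chosen after seeing the data, undetected values were raised to that lowest detected level and the fit was repeated. The number of arrays limits the precision.

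Same-numbered replicates of a line deviated together. Their deviations from group means correlated at r of 0.245 to 0.644, above 0.1 in all 30 pairs of each line, against 0 of 3 pairs of hepatocytes. With 2 arrays per culture group the deviations of replicates 1 and 2 mirror each other. Each r of a line was thus counted for both replicates, and the 30 are not separate values. The pairing is known from these data only. Replicates of a group correlated at 0.950 to 0.982, and 0 arrays were identical. Median signals were 109 to 158 per array.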

Additional observations from a re-analysis of the deposited data

Results flagged for a closer look

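The change from day 0 to day 28 differed between the GPSC lines and ES cells, by the limma test of that difference itself, for 7 members. The difference, GPSC mean minus ES, was 3.20 for Slc6a9 (limma adjusted p = 0.000186) and -4.18 for Slc6a2 (limma adjusted p = 2.36e-07), and both calls were kept under every setting and without any single array. It was 3.10 for Slc1a4 (limma adjusted p = 0.00622), 3.10 for Slc7a11 (limma adjusted p = 0.0259) and 2.59 for Slc7a3 (limma adjusted p = 0.0231). It was -2.66 for Slc7a8 (limma adjusted p = 0.00843) and -2.23 for Slc6a12 (limma adjusted p = 0.00837). The Slc6a12 call was lost without ES day 28 replicate 2 (-1.67, limma adjusted p = 0.146), and the Slc7a11 call without ES day 28 replicate 1 (2.59, limma adjusted p = 0.182). Slc7a11 was undetected on the ES day 28 arrays, and Slc6a2 and Slc6a12 on all day 0 arrays, so the sizes of these differences rest in part on levels below detection: with undetected arrays at the lowest detected level they were 2.48, -4.51 and -2.14. Without ES day 0 replicate 1 the differences of Slc1a4, Slc7a11, Slc7a3 and Slc7a8 were not called.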

How the results depend on the processing

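Of 124 called member values, 63 were called under every other setting and without any single array. Further passing probes of the tested members, 23 in number, were checked separately and repeated fewer of the calls. They gave 106 readings for called values. A call in the direction of the main probe was reached in 39 of these, and a reversed call in 0. The other 67 fell short of a call, and 45 of those 67 shared the main probe's sign. With the replicate block all 124 stayed called and further members were called: 12 for GPSC-A day 28, 14 for GPSC-B day 28, 5 for GPSC against ES at day 0 and 10 for their day 28 change. Raising undetected arrays to the lowest detected level of the array, chosen after seeing the data, lost 21 calls and turned the direction of 4 others, all of members undetected on every array of at least 1 side: Slc38a8 for E16 against day 0 (0.27) and, for PN1 against E16, Slc1a3 (0.52), Slc43a3 (0.045) and Slc7a9 (0.60). It left 1 called member at day 2, 5 for day 28 against day 14 and 11 for PN1 against E16. No other setting changed the direction of a called value. Calls lost numbered 37 with median scaling, 47 without background correction and 45 in the authors' deposited table. Counts of called members that moved by over 1.5 times were these. Percentages in brackets are the share of members called and then that of all genes. With median scaling, 0 differed between GPSC and ES at day 0 (0%, 1.37%), 3 in the day 28 change (8.11%, 1.44%) and 8 between PN1 and E16 (21.6%, 15.3%). Median scaling also changed splits of higher and lower calls: 1 and 1 at day 2, 3 and 4 at day 7, 4 and 5 for day 28 against day 14. Without background correction 0 were called at day 2 (0%, 2.1%), 2 at day 14 (5.41%, 3.27%) and 3 for day 28 against day 14 (8.11%, 7.08%). That setting also left 2 for GPSC against ES at day 0 (5.41%, 1.5%), 11 for E16 against day 28 (29.7%, 21.1%) and 8 for PN1 against E16 (21.6%, 13.1%). In the authors' deposited table the counts were 7 for GPSC-A day 28 (18.9%, 18.7%), 0 at day 2 (0%, 2.22%) and 2 at day 14 (5.41%, 3.52%). They were 4 for day 28 against day 14 (10.8%, 7.38%) and 2 for GPSC against ES at day 0 (5.41%, 1.71%). For E16 against day 28 the count was 12 (32.4%, 22.4%), and for PN1 against E16 it was 7 (18.9%, 13.9%). With the groups of each comparison alone, 1 was called at day 2 and 0 for GPSC against ES at day 0. With no minimum fold, 5 were called at day 2 and 10 at day 7. The cause of these moves was not tested. Without 1 array the counts ran from 0 to 3 at day 2, from 1 to 4 for GPSC against ES at day 0, from 3 to 9 for the day 28 change between lines, from 7 to 11 for GPSC-A and from 9 to 15 for ES. Without ES day 0 replicate 1, also chosen after seeing the data, 2 of the 5 response list genes were called for the difference between the lines. A slide block was not run, since no slide was given. Members near background, with 17 detected on no array, set the limit of what could be tested.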
